A study of Rattus norvegicus with 8 samples.

Results

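Phenylalanine and tyrosine breakdown was followed through 7 genes, Pcbd1, Qdpr, Tat, Hpd, Hgd, Gstz1 and Fah, chosen by symbol, and each was found once among the 15115 gene rows of the authors' deposited table. The livers came from wild-type male F344 rats that arrived at 4 weeks of age and carry a labelled age of 1 year. A group of 4 rats (CDAA) ate a diet that lacked choline and held amino acids in defined amounts, and another 4 (CDAA_PTS) ate the same diet with pterostilbene at 1.34 g per kg. Both groups thus shared the choline-deficient diet, a diet used to bring about hepatocellular carcinoma in rats. The CDAA_PTS rats had also received pterostilbene, a dimethylated relative of resveratrol, in choline-sufficient food for the first 3 weeks of a 60-week study with 6 rats per group. Tissue taken in the study was tumour, nodule or normal liver, and the sources used here do not say which of these each library holds. Each gene has 1 FPKM value per group (a read level scaled for gene length and library size), so no spread between rats accompanies a level, and depth per library is unknown. Rats were kept 2 to a cage, and cage was not analysed here.

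The pathway is a hepatocyte task. Phenylalanine is first turned into tyrosine in a reaction that uses up the cofactor tetrahydrobiopterin, which Pcbd1 and Qdpr regenerate. Tyrosine is then cut down in 5 steps, by Tat, Hpd, Hgd, Gstz1 and Fah in that order, to fumarate and acetoacetate, which feed energy metabolism. Inherited loss of Fah or Tat in humans causes tyrosinaemias, loss of Hgd causes alkaptonuria, and blocking Hpd protects Fah-deficient livers from the toxic products of the later steps. Tat is a classical target of glucocorticoids and glucagon in liver, and Pcbd1 has a second role as a dimerization cofactor in transcription.

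Hpd and Hgd, 2 of the 7 genes, rose with pterostilbene by the edgeR columns of the authors' deposited table, where an adjusted p under 0.05 over all rows was taken as a call, and no gene fell. By that rule 3.41% of the 15115 rows were called, 1.47% higher and 1.95% lower in CDAA_PTS, and 4.81% were called higher among the 852 rows with a mean normalized count of at least 2000, the range that holds all 7 genes. DESeq2 and Cuffdiff in the authors' deposited table call the same 2 genes, against 1.96% and 2.80% of the rows each tool tested that were called higher. Among the 852 abundant rows, DESeq2 calls 59 higher and Cuffdiff 52. At an unadjusted edgeR p under 0.05, 3 of the 7 genes were higher, against 6.76% of all rows and 14.2% of the 852 abundant ones. The edgeR log2 fold changes of the 7 genes in the authors' deposited table ran from 0.15 to 0.73, all above 0, with a median of 0.41. Over all rows the median was 0.01 and 51.0% were above 0, and over the 852 abundant rows the median was 0.04 and 58.2% were above 0. The 5 tyrosine-cutting genes stood between 0.32 and 0.73 and the 2 cofactor genes at 0.15 and 0.16 on this scale, a gap that was not tested. The same 8 rats lie behind each value, so the 7 values are not independent observations.

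**Figure D1:**
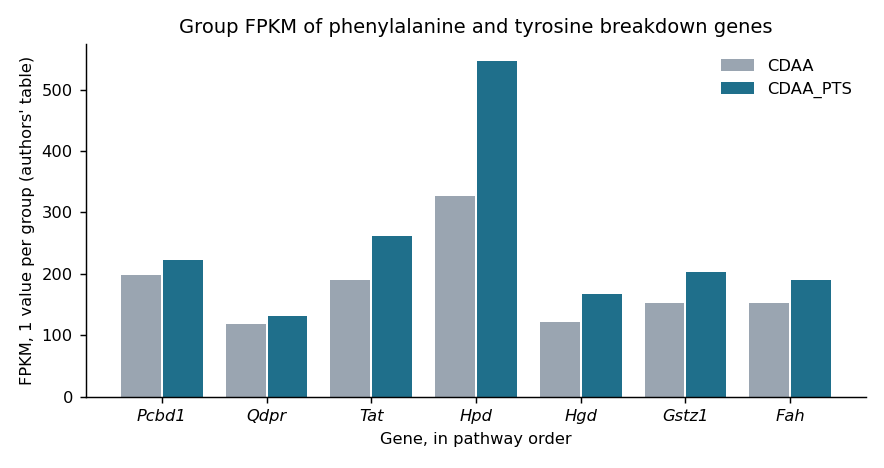
Bars give the authors' FPKM (1 value per group, no error available) for the 7 genes in pathway order in CDAA and CDAA_PTS livers, with n = 4 rats behind each bar. Every CDAA_PTS bar is the taller one, with the widest gap at Hpd (547 against 327 FPKM) and the narrowest at Qdpr (132 against 118).

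The DNA just before each gene start is shown for the 2 genes that rose and for Tat and Pcbd1, of which Tat is known for its hormone control and Pcbd1 for its second role in transcription. The sequences are the 250 bases 5′ of the start in the RefSeq promoter table of build GRCr8, which had an entry for each of the 7 genes. Positions in that build are chr12:39041996-39042245 (plus strand) for Hpd, chr11:76643768-76644017 (minus strand) for Hgd, chr19:54856354-54856603 (plus strand) for Tat and chr20:29581417-29581666 (plus strand) for Pcbd1. Capitals mark matches, on either strand, to the C/EBP core TTGNGCAA, the CCAAT box, the aryl hydrocarbon receptor core GCGTG, the glucocorticoid receptor core TGTTCT and the TATA box TATAAA. No marked match overlaps another, and the window of Hpd holds none.
Hpd: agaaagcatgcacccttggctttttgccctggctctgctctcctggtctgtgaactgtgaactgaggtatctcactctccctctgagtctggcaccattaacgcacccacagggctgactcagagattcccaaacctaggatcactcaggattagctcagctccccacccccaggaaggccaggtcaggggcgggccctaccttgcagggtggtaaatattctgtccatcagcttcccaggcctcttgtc
Hgd: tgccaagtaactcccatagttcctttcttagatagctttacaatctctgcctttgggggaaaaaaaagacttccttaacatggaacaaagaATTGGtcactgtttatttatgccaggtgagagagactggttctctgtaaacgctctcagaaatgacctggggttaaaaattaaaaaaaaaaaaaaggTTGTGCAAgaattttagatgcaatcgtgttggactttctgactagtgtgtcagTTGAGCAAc
Tat: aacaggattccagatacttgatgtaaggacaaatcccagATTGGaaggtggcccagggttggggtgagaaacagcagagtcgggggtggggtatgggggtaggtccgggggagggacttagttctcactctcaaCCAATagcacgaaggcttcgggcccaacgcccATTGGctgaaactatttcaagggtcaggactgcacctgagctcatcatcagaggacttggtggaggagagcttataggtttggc
Pcbd1: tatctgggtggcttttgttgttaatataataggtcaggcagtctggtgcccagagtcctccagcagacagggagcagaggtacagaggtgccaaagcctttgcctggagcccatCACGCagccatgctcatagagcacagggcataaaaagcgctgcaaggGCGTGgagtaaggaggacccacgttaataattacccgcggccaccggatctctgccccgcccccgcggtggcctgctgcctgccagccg
The C/EBP core was found in Hgd and Qdpr, 2 of the 7 windows against 2.29% of 33469 promoters of the same length, and Hgd carried it at -62 and -9. The CCAAT box was found in Qdpr, Tat and Hgd, 3 of 7 against 34% of all promoters, and Tat carried it at 3 places, starting at -211, -116 and -84. The aryl hydrocarbon receptor core was found in Pcbd1, Qdpr and Fah, 3 of 7 against 25.9%. The glucocorticoid receptor core was found in Qdpr alone (17.5% of all promoters) and the TATA box in none of the 7 (12.9%). Sites farther than 250 bases from a start were not searched, so the lack of a match in Tat says nothing about its hormone control. The motifs were chosen with these sequences known, so the counts set against all promoters are not a test of enrichment. These letters describe the windows only and were not tied to the expression values by any test.

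Hpd, 4-hydroxyphenylpyruvate dioxygenase, takes the second of the 5 steps and had the largest difference of the 7 genes. The authors' deposited table lists it at 547 FPKM with pterostilbene and 327 FPKM without, a 1.67-fold ratio of levels. EdgeR there gave a log2 fold change of 0.73 (adjusted p = 0.021), and DESeq2 a moderated one of 0.60 ± 0.17 (SE, adjusted p = 0.014). Cuffdiff gave Hpd a log2 ratio of 0.74 (q-value 0.0019) in the same table, so all 3 tools call it. Among the 852 abundant rows, Hpd ranked 24 by edgeR log2 fold change. Hpd (ENSRNOG00000001338) lies on chromosome 12 at 38828443 to 38839969 (rn6), the position in the authors' deposited table.

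Hgd, homogentisate 1,2-dioxygenase, opens the aromatic ring in the third step and was the other gene that rose. Its level in the authors' deposited table was 167 FPKM with pterostilbene and 121 FPKM without, a 1.38-fold ratio. EdgeR gave a log2 fold change of 0.48 (adjusted p = 0.024) and DESeq2 0.44 ± 0.12 (SE, adjusted p = 0.0096) there. Cuffdiff in the authors' deposited table also calls Hgd, with a log2 ratio of 0.47 (q-value 0.036). The DESeq2 SE of Hgd was smaller than that of Hpd, and a smaller difference passed the same threshold. Hgd (ENSRNOG00000002701) spans 65983220 to 66034573 on chromosome 11 of rn6 in the authors' deposited table.

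Gstz1 and Fah take the last 2 steps, and neither passed over all genes. Gstz1, maleylacetoacetate isomerase, is given 203 FPKM with pterostilbene and 152 FPKM without in the authors' deposited table, where its edgeR log2 fold change was 0.41 (p = 0.048, adjusted p = 0.33). Fah, fumarylacetoacetate hydrolase, is given 191 FPKM with pterostilbene and 152 FPKM without in the authors' deposited table, where its edgeR log2 fold change was 0.32 (p = 0.053, adjusted p = 0.35). By edgeR both were close to the unadjusted limit of 0.05 and far from the adjusted one. DESeq2 gave Gstz1 and Fah p-values of 0.046 and 0.049 (adjusted p 0.31 and 0.32). Cuffdiff gave them p-values of 0.012 and 0.029 (q-values 0.14 and 0.26), so neither tool calls them. The moderated DESeq2 values in the authors' deposited table were 0.33 ± 0.17 (SE) for Gstz1 and 0.28 ± 0.14 (SE) for Fah, with 95% intervals (1.96 SE either side) from 0.0059 to 0.66 and from 0.00094 to 0.56. Those intervals hold values near 0 as well as the DESeq2 value of Hgd, so a failure to pass does not show that Gstz1 and Fah stayed level. The authors' deposited table lists Gstz1 on chromosome 6 at 111135348 to 111187244 in rn6, the same span that it gives to Pomt2, so reads of the 2 genes may be mixed. Fah lies on chromosome 1 at 146713675 to 146736261 (rn6), the position in the authors' deposited table.

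Tat, tyrosine aminotransferase, takes the first step, and the 3 tools gave it different readings. Its level in the authors' deposited table was 261 FPKM with pterostilbene and 191 FPKM without, a 1.37-fold ratio close to that of Hgd. EdgeR in the authors' deposited table gave a log2 fold change of 0.44, yet with the largest p of the 7 genes (p = 0.36, adjusted p = 0.76). Cuffdiff there gave a log2 ratio of 0.45 with a p of 0.039 and a q-value of 0.30. DESeq2 moderated the Tat value to 0.15 ± 0.20 (SE), 0.338 times the edgeR value, whereas for the other 6 genes of the authors' deposited table the moderated value was 0.809 to 0.920 times the edgeR value. The SE of Tat was the largest of the 7 (0.11 to 0.17 in the others) and ranked 14 among the 852 abundant rows of the authors' deposited table, whose median SE was 0.13. DESeq2 gives Tat no p at all, and Tat is the only one of those 852 rows without one, against 98 of all 15115 rows of the authors' deposited table. By default DESeq2 leaves the p empty where the count of 1 library lies far from the rest, and whether that holds for Tat was not tested, since values per rat were not analysed here. Tat lies on chromosome 19 at 41675354 to 41686229 (rn6), the position in the authors' deposited table.

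**Figure D2:**
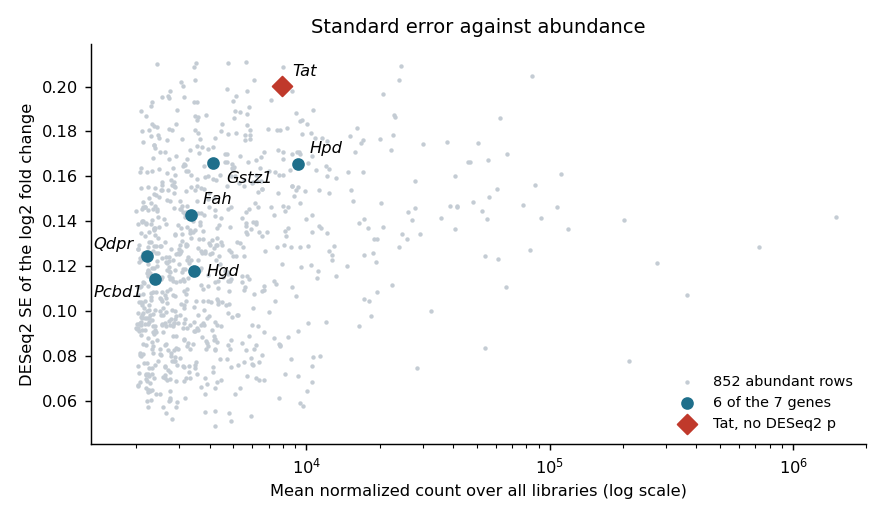
Each grey point is 1 of the 852 rows with a mean normalized count of at least 2000, placed by that mean over all libraries (log scale) and by the DESeq2 SE of its log2 fold change. Tat (red diamond, SE 0.20) lies near the top edge of the cloud, whereas Hgd, Pcbd1 and Qdpr (0.11 to 0.12) lie close to its middle.

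The cofactor-regenerating genes showed the smallest differences. Pcbd1, the dehydratase with the second role, is given 222 FPKM with pterostilbene and 198 FPKM without in the authors' deposited table, where its edgeR log2 fold change was 0.16 (adjusted p = 0.64). Qdpr, quinoid dihydropteridine reductase, is given 132 FPKM with pterostilbene and 118 FPKM without in the authors' deposited table, where its edgeR log2 fold change was 0.15 (adjusted p = 0.71). From the moderated DESeq2 values and SEs of the authors' deposited table, the 95% intervals ran from -0.07 to 0.37 for Pcbd1 and from -0.11 to 0.38 for Qdpr. Both intervals overlap that of Hgd, from 0.21 to 0.67, and the difference between these genes was not tested. Pcbd1 lies on chromosome 20 at 30690809 to 30696476 and Qdpr on chromosome 14 at 70164649 to 70178284 (rn6), the positions in the authors' deposited table.

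**Figure D3:**
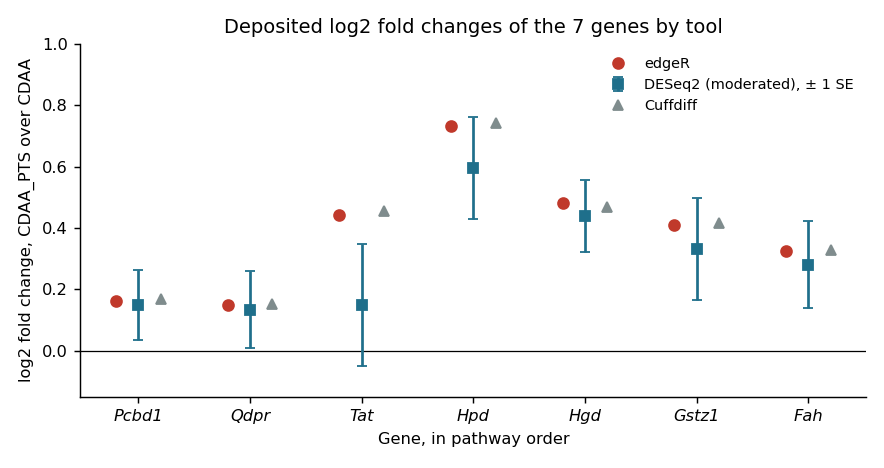
Points give the log2 fold change of CDAA_PTS over CDAA from edgeR, DESeq2 (moderated, bars ± 1 SE) and Cuffdiff for each of the 7 genes, n = 4 rats per group. The edgeR and Cuffdiff points lie together for every gene, while the DESeq2 point of Tat (0.15) falls well below its edgeR point (0.44).

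Set side by side per length, the levels of the 7 genes in CDAA livers of the authors' deposited table ran from Hpd at 327 FPKM down through Pcbd1 (198), Tat (191), Gstz1 (152), Fah (152) and Hgd (121) to Qdpr at 118 FPKM. In CDAA_PTS livers the order was the same but for Tat (261 FPKM), which stood above Pcbd1 (222 FPKM) in that table. Without a spread between rats, neighbours in this order cannot be told apart by a test. Summed from the authors' deposited table, the FPKM of the 7 genes came to 1723 in CDAA_PTS and 1260 in CDAA, and Hpd made up 31.7% and 26.0% of those sums. The share of Tat was close in both groups, at 15.2% and 15.1%.

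Transcripts of other genes of the cofactor were measured too. Of 5 tetrahydrobiopterin genes outside the 7, 1 fell, none rose and 4 did not pass, with a median edgeR log2 fold change of -0.07 in the authors' deposited table. The gene that fell was Spr, sepiapterin reductase, which completes tetrahydrobiopterin synthesis. Spr is given 3.87 FPKM with pterostilbene and 6.93 FPKM without in the authors' deposited table, where its edgeR log2 fold change was -0.84 (adjusted p = 0.010). Gch1, which starts that synthesis, and Pts, which takes its middle step, stood at -0.07 and 0.24 by edgeR (adjusted p 0.93 and 0.46), as listed in the authors' deposited table.

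Among 7 measured carriers of aromatic and other neutral amino acids, Slc16a10 rose, none fell and 6 did not pass (median edgeR log2 fold change 0.02, the authors' deposited table). Slc16a10, which moves aromatic amino acids across cell membranes, is given 7.08 FPKM with pterostilbene and 2.16 FPKM without in the authors' deposited table. EdgeR there gave Slc16a10 a log2 fold change of 1.63 (adjusted p = 8.1e-05), and DESeq2 1.04 ± 0.20 (SE). The other carriers ran from -0.42 for Slc7a8 to 0.33 for Slc43a1 on the edgeR log2 scale of the authors' deposited table. The edgeR log2 fold change of Slc16a10 was larger than that of any of the 7 enzymes, at a much lower FPKM.

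Among 9 further transaminases and relatives of the pathway enzymes, Kyat3 rose, Hpdl fell and 7 did not pass (median edgeR log2 fold change 0.25, the authors' deposited table). Kyat3, a kynurenine aminotransferase, stood at 0.41 by edgeR (adjusted p = 0.033) and passed in DESeq2 (adjusted p = 0.014) but not in Cuffdiff (q-value 0.073) in the authors' deposited table. Hpdl, a relative of Hpd, stood at -1.98 by edgeR (adjusted p = 0.029) from a mean normalized count of only 5.80, and in the authors' deposited table DESeq2 gave it no adjusted p (p = 0.0039) and Cuffdiff a q-value of 1.00. Got1, the cytosolic aspartate aminotransferase, had an edgeR log2 fold change of 1.42 that did not pass (adjusted p = 0.062) and, like Tat, no DESeq2 p, whereas Cuffdiff calls it (q-value 0.0019) in the authors' deposited table. Of 7 measured genes that use or make fumarate and acetoacetate or handle malate next to them, Fh rose and 6 did not pass (median edgeR log2 fold change -0.11, the authors' deposited table). Fh, fumarate hydratase, stood at 0.38 (adjusted p = 0.040 by edgeR, 0.016 by DESeq2), and Cuffdiff in the authors' deposited table does not call it (q-value 0.096). Of the malate dehydrogenases, DESeq2 calls Mdh2 lower (-0.33, adjusted p = 0.033) and Cuffdiff calls Mdh1 higher (0.48, q-value 0.036), and edgeR calls neither (adjusted p 0.077 and 0.085) in the authors' deposited table. Oxct1 and Acat1, which act on acetoacetate or its coenzyme A ester, stood at -0.19 and -0.11 by edgeR (adjusted p 0.80 and 0.82), as listed in the authors' deposited table. Of 3 measured genes of the catecholamine branch, 0 passed in edgeR, DESeq2 or Cuffdiff, and 1 of them, Ddc at 0.34, had an unadjusted edgeR p under 0.05 in the authors' deposited table.

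**Figure D4:**
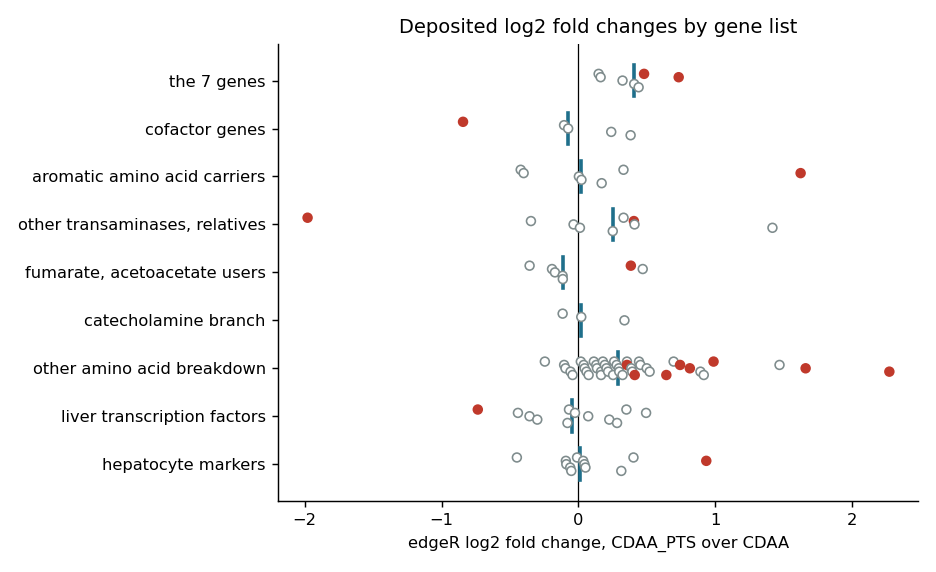
Each circle is a gene at its edgeR log2 fold change of CDAA_PTS over CDAA, by list, filled red where the adjusted p is under 0.05 and open otherwise, and the blue bar is the list median. The 7 genes all lie right of 0 with a median of 0.41, the enzymes for other amino acids have a median of 0.29, and the hepatocyte markers have a median of 0.01.

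Breakdown enzymes of other amino acids are given for comparison. Of 44 measured, 8 rose, none fell and 36 did not pass in edgeR, and in the authors' deposited table the median log2 fold change was 0.29, with 39 values above 0. DESeq2 in the authors' deposited table calls 7 and Cuffdiff 13 of the 44 higher. Aass, of lysine breakdown, had the largest edgeR value of the list at 2.27 (adjusted p = 3.1e-07), and Kynu and Kmo, of tryptophan breakdown, stood at 0.99 and 0.64 (adjusted p 1.8e-06 and 0.00033) in the authors' deposited table. Hal and Ftcd, which take the first and last steps of histidine breakdown, stood at 0.82 and 0.74 by edgeR (adjusted p 0.0042 and 0.010), close to the value of Hpd in the authors' deposited table. Oat, of ornithine breakdown, stood at 1.66 by edgeR (adjusted p = 0.036) and did not pass in DESeq2 (adjusted p = 0.12) in the authors' deposited table. Hibch and Pcca, of branched-chain amino acid breakdown, stood at 0.36 and 0.41 by edgeR (adjusted p 0.044 and 0.049), as listed in the authors' deposited table. Whether the 7 genes differ from these 44 was not tested.

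Transcription factors with a known part in liver expression held 1 edgeR call. Of 12 rows for 11 factors, Cebpb fell and 11 did not pass (median edgeR log2 fold change -0.05, the authors' deposited table). Cebpb, a C/EBP factor of the acute phase and of gluconeogenesis, is given 12.0 FPKM with pterostilbene and 20.0 FPKM without in the authors' deposited table, where its edgeR log2 fold change was -0.73 (adjusted p = 0.00047). Ahr, the aryl hydrocarbon receptor, stood at 0.50 (adjusted p = 0.14) by edgeR, and of the 3 tools in the authors' deposited table Cuffdiff alone calls it (q-value 0.016). Hnf4a, a main regulator of hepatocyte genes, stood at -0.07 by edgeR (adjusted p = 0.90), as listed in the authors' deposited table. The glucocorticoid receptor Nr3c1 has 2 rows, at 0.07 and -0.02 by edgeR (adjusted p 0.88 and 0.99), as listed in the authors' deposited table. Of 12 glucocorticoid and glucagon response genes, G6pc (1.73, adjusted p = 2.4e-14) rose and 11 did not pass (median edgeR log2 fold change 0.07, the authors' deposited table). The 3 most abundant uncalled genes, Pck1, Creb3l3 and Mt2A, stood at -0.09, -0.26 and 0.13 by edgeR there (adjusted p 0.94, 0.53 and 0.95). Fkbp5 and Tsc22d3, genes that respond to glucocorticoids, stood at 0.44 and -0.12 by edgeR (adjusted p 0.61 and 0.94), while in the authors' deposited table Cuffdiff calls Fkbp5 higher (0.52, q-value 0.018). Per1, a clock gene that also responds to them, stood at -0.85 by edgeR (adjusted p = 0.088), while in the authors' deposited table Cuffdiff calls it lower (q-value 0.0019).

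The labelled tissue carried its defining markers. Of 12 hepatocyte markers 1 rose and 11 did not pass, with a median edgeR log2 fold change of 0.01 and 6 of 12 above 0 in the authors' deposited table. The one that rose was Ass1, also a urea cycle enzyme, at 0.94 by edgeR (adjusted p = 0.00076), as listed in the authors' deposited table. Alb had the highest mean normalized count, 1496570, yet is listed at 0 FPKM in both groups of the authors' deposited table, and its edgeR log2 fold change was -0.09. Summed from the authors' deposited table, the FPKM in CDAA_PTS and CDAA was 87.8 and 74.9 for cholangiocyte, 216 and 204 for stellate cell and 322 and 330 for macrophage markers. It was 63.5 and 60.8 for endothelial, 10.3 and 8.22 for T and NK cell and 10.4 and 11.0 for neutrophil markers. By edgeR in the authors' deposited table, 6 of 6 cholangiocyte (median log2 fold change 0.23), 5 of 6 T and NK cell (0.37) and 5 of 7 stellate cell markers (0.15) lay above 0. In those columns 4 of 8 macrophage (-0.04), 2 of 5 endothelial (-0.05) and 1 of 3 neutrophil markers (-0.15) lay above 0. The T and NK cell and neutrophil markers had low mean normalized counts, from 5.61 for Gzmb to 50.2 for Cd8a. Of the 35 measured genes of those 6 lists, 0 were called by edgeR or DESeq2, 3 (Dcn, Cd68 and Kdr) had an unadjusted edgeR p under 0.05, and Cuffdiff calls Sox9 and Dcn higher in the authors' deposited table. Rat liver tumour markers held 1 edgeR call among 7, Aldh3a1, which rose by 4.13 from a mean normalized count of 19.1 (adjusted p = 0.0029, no DESeq2 p). Cuffdiff calls Aldh3a1 and Ggt1 higher (q-values 0.020 and 0.0088), and edgeR gave Ggt1 0.70 (adjusted p = 0.33). Gstp1 and Afp stood at 0.41 and 0.00 by edgeR (adjusted p 0.82 and 1.00), as listed in the authors' deposited table. The 4 B cell markers were not analysed here. In whole liver pieces, a larger share of hepatocytes and more RNA per hepatocyte cannot be told apart. The part of cell makeup in the values of Hpd and Hgd was not tested.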

How the data were processed

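Liver RNA of 8 rats, 4 per diet, was extracted with Trizol and sequenced from Illumina TruSeq libraries, per the labels' protocols. The submitters' processing notes name FastQC, TopHat2, Cufflinks, DESeq2, edgeR and build rn6, while the sources used here name no counting tool, model or strandedness. The deposited table holds 1 row per gene with 3 blocks, per the file headers. The authors' DESeq2 block gives a signal (mean of counts divided by size factors), a moderated log2 fold change with SE, a Wald score and p-values. Log2 fold changes, log2 mean CPM and p-values fill the authors' edgeR block. The authors' Cuffdiff block gives 1 FPKM per group, a log2 ratio and p-values. There were 0 columns of per-sample values set aside, and 66 Cuffdiff ratios held spreadsheet errors and were left out.

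No count model was run here. The authors' edgeR adjusted p under 0.05 over 15115 rows was the threshold, with the authors' DESeq2 and Cuffdiff values as alternatives. Positive values mean higher in CDAA_PTS. The deposited edgeR adjusted p-values of the authors differed by at most 6.4e-15 from Benjamini-Hochberg values computed again, with a function tested on simulated data, in Python 3.11.15 with pandas 2.3.3. The p-values rest on the authors' own estimates of variation between animals, and no interval of counts or detection floor per library could be had. Members, lists and motifs were chosen with earlier results of these data, and for motifs the sequences, known. Named genes were the 7 members and, from each list, up to 8 called genes and up to 3 abundant ones not called. For some lists abundant genes not called, such as Slc38a4 and Glud1, were left without values in the text. Others named in the text were added after their values were seen. They include Pts, Gch1, Slc7a8, Slc43a1, Got1, Oxct1, Ddc, Fkbp5, Tsc22d3, Per1, Ahr, Mdh1, Mdh2, Sox9, Dcn, Ggt1, Igf2 and Gpc3. Some genes of these lists are not reported here, and the lists' counts and medians leave them out.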

Additional observations from a re-analysis of the deposited data

How the results depend on the processing

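Of 62 recomputed differences of single genes that carry a p, 59 kept their side of the threshold. Most settings changed only the limit or the adjustment and reused the edgeR log2 fold change, so its direction could not turn. Centring moved it by only 0.01 and reused the adjusted p, so it could not change a call. A stricter limit could not add a call, and a looser limit or the unadjusted p could not remove one. Part of the 59 was thus fixed in advance. The DESeq2 and Cuffdiff values could differ in direction, and none of them did. The 18 recomputed values with no p (FPKM ratios and medians) moved by less than 1 DESeq2 SE, which for medians was the median SE of the 7 genes. The FPKM ratios used pseudocounts of 1 and 0.1, small against levels of 118 to 547 FPKM. They therefore stayed close to the Cuffdiff values and add little to them. The count of 2 genes that rose was 2 in DESeq2 (6 genes with an adjusted p), in Cuffdiff, at an adjusted p under 0.10 and with adjustment over rows of at least 1 CPM, over rows with a mean normalized count of at least 500 and, an alternative chosen after seeing the data, at least 2000. At an adjusted p under 0.01 the count was 0, and Hpd (0.73) and Hgd (0.48) lost their calls, with adjusted p-values of 0.021 and 0.024. At an unadjusted edgeR p under 0.05, also chosen after seeing the data, 3 genes passed and Gstz1 (0.41) was the added one. By that limit 6.76% of all rows and 14.2% of the 852 abundant rows were higher. The adjusted p of Hpd ran from 0.0019 to 0.021 and that of Hgd from 0.0096 to 0.036 over the tools and filters. The median log2 fold change of the 7 genes was 0.28 in DESeq2, 0.42 in Cuffdiff, 0.40 after centring on all rows and 0.37 without Tat. No paired analysis was possible because the deposited table holds no value per rat, and leaving out single rats was not run for the same reason.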
